A study of Arabidopsis thaliana with 15 samples.

Results

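The transcripts described here are those that were lower in Arabidopsis thaliana seedlings after induction of FAMA than in uninduced seedlings at both 4 h and 48 h. Of 22746 probe sets, 158 met the rule (0.695%). Members were selected on measured values, the FAMA and control signals at both times. The rule asked for a mean log2(signal + 20) at least 0.5 below the control at each time, for all 3 FAMA arrays below all 3 control arrays at each time, and for a mean signal of at least 100 in the 48 h controls. Of the 158, 74 had 1 gene name in the probe table, 1 stood for several genes and 83 had no name there and are given by probe set ID only.

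FAMA, of the basic helix-loop-helix class of transcription factors, ends the divisions of the guard mother cell and starts the differentiation of the paired guard cells around each stomatal pore. It acts after SPCH and MUTE, related factors of the same lineage. Forced expression of FAMA outside the lineage is known to turn other epidermal cells towards guard cell fate. Arrays of whole seedlings do not show in which tissue a transcript became scarcer. The EAR motif is a short repression domain of plants, and a factor fused to it is commonly used to repress the genes that the factor binds.

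The series holds 15 ATH1 arrays in 5 groups of 3, all from whole seedlings of ecotype Columbia grown for 5 days at 22 °C in continuous light. Control 4 h seedlings were labelled 5 days old, without induction, and control 48 h seedlings 7 days old, without induction. FAMA 4 h and FAMA 48 h seedlings were moved to 10 µM estrogen to induce FAMA and were labelled 5 and 7 days old. FAMA-EAR 48 h seedlings were 7 days old and had 48 h of estrogen to induce FAMA fused to an EAR repression domain. Controls were moved to fresh plates without estrogen, so a difference from them holds hormone and construct together. The labels do not say which transgene the controls carried, how many plant lines were used, which promoter or cells drive the induced construct or whether replicates were separate cultures, so that p-values measure the spread between these arrays, which may be technical.

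FAMA signal was between 229.6 and 255.7 on the 6 control arrays. It was between 11695.5 and 12830.6 at 4 h of FAMA, between 16934.1 and 18576.3 at 48 h, and between 2726 and 3456.5 in FAMA-EAR seedlings. Whole seedlings hold shoot and root, and in the 48 h controls 5 nuclear photosynthesis genes had mean signals of 9959 to 24285 and 2 root hair genes had 121.1 and 152.0, levels that cannot be set against each other because they come from different probe sets. Median signal was between 188.2 and 199 on 14 arrays and 239.5 on the third FAMA 4 h array. RNA quality was read from the actin and GAPDH controls, whose log2 ratio of 3' over 5' signal averaged 0.191 to 0.214 on FAMA 48 h arrays, 0.297 to 0.495 on 48 h controls and 0.533 to 0.731 on FAMA-EAR arrays.

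The differences from control at 4 h and at 48 h chose the members, so they are given as a description with no test. At 4 h the members' median log2 difference was -0.76, with a range from -1.77 to -0.50, against a median of 0.09 for all probe sets. At 48 h the median was -0.87, with a range from -3.33 to -0.50, against -0.02 for all. Over all probe sets with a 48 h control signal of 100 or more, the medians were 0.02 at 4 h and -0.001 at 48 h. The fall was larger at 48 h in 98 members and larger at 4 h in 60. The falls at the separate times were within 0.5 of each other in 131, over 0.5 larger at 48 h in 24 and over 0.5 larger at 4 h in 3. A difference of -1 or below was reached by 34 members at 4 h (0.4% of all probe sets), by 56 at 48 h (1.52% of all) and by 18 at both times. FAMA arrays all below the controls, which every member has by choice, were found in 6.76% of all probe sets at 4 h and 20.6% at 48 h. In whole seedlings, fewer cells of a type and less RNA per cell cannot be told apart.

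**Figure D1:**
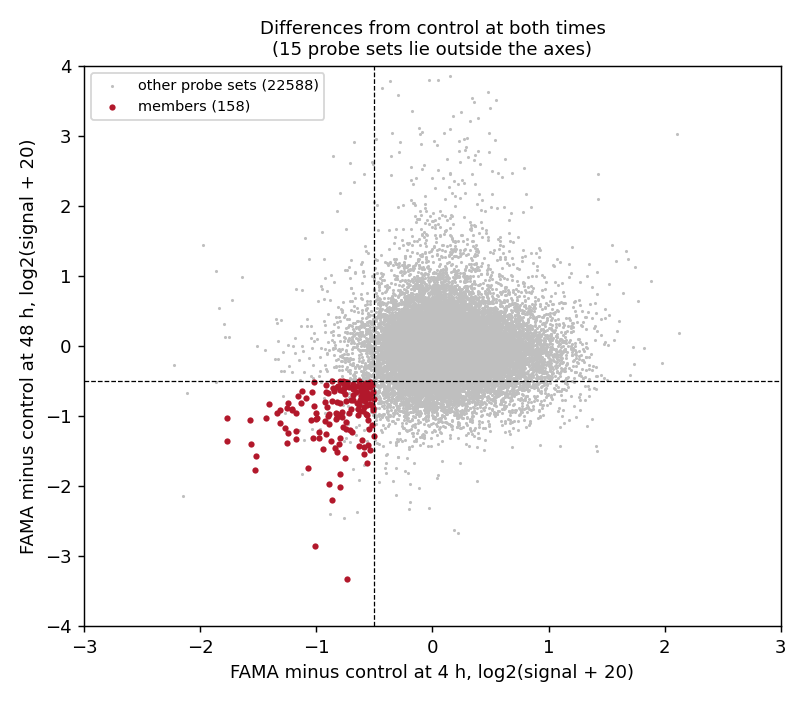
Difference between FAMA and control seedlings at 4 h (horizontal axis) and at 48 h (vertical axis), on the log2(signal + 20) scale, for the 158 members (red) and 22588 other probe sets (grey). Dashed lines mark -0.5 at each time, and 15 probe sets lie outside the axes. Most members sit near the corner of the lines, and the points farthest down reach -3.33 at 48 h.

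Members were spread over a wide range of signal. Their mean signal in the 48 h controls ran from 113.8 to 5675, with a median of 530.9, while the 14205 probe sets at 100 or more had a median of 436.0. In all, 51 members were above 1000 and 46 below 300. Closest to the limit on the inside were AT5G61590 at 4 h (-0.501) and AT4G24710 at 48 h (-0.502). Just outside were AT3G16670, at -0.499 at 4 h and -1.48 at 48 h, and probe set 264624_at, at -0.498 and -0.65. The third FAMA 4 h array gave the lowest of the 3 FAMA 4 h signals for 63 members and the highest for 47. Without it the 4 h difference still reached -0.5 for 129 members, with a median of -0.71.

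Transcription regulators among the named members came from several families. TINY (AT5G25810, TAIR10.1 chromosome 5, 8986542 to 8987898), an AP2/ERF factor of the DREB group, had signals of 720.6, 479 and 650.8 in the 4 h controls and 294.3, 286.4 and 344.9 at 4 h of FAMA. At 48 h it had 427.7, 401.1 and 444.5 in the controls and 189.8, 134.5 and 106.3 with FAMA. The log2 differences were -0.94 and -1.47. In FAMA-EAR seedlings it had 502.1, 544.6 and 699.6, all above the highest 48 h control, but limma did not call this rise (adjusted p = 0.232).

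DEWAX (AT5G61590, chromosome 5, 24764256 to 24765511), an AP2/ERF repressor of cuticular wax synthesis, had signals of 2054.4, 2167.5 and 2234.5 in the 48 h controls. With FAMA at 48 h they were 756.7, 877.1 and 989.2, and with FAMA-EAR 1762.1, 1962 and 2063.9. FAMA-EAR arrays thus overlapped the controls and lay above every FAMA array. At 4 h its signals were 2267.4, 2010.7 and 2024 in the controls and 1322.1, 1532.5 and 1588.4 with FAMA, the smaller of its falls.

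STZ (ZAT10, AT1G27730), a zinc finger repressor of abiotic stress responses, had 180.1, 205.5 and 234 in the 48 h controls, 125.7, 116.2 and 150.1 with FAMA and 102.3, 74.4 and 124.6 with FAMA-EAR. Both induced groups lay below the controls. HYH (AT3G17609), the bZIP homologue of the light signalling factor HY5, had mean signals of 577.5 ± 24.6 (SD, n = 3) and 329.9 ± 21.2 at 4 h without and with FAMA. At 48 h the means were 542.4 ± 63.2 and 376.3 ± 46.2, and with FAMA-EAR 523 ± 57. Its log2 differences of -0.77 and -0.51 made it one of the members with a larger fall at 4 h.

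Enzymes that conjugate small molecules formed another set. UGT72E1 (AT3G50740, chromosome 3, 18855043 to 18857040), a glucosyltransferase of monolignol aldehydes, had signals of 1935.1, 1697.2 and 1724.4 in the 4 h controls and 1009, 999.5 and 1174.8 with FAMA. At 48 h it had 1424, 1249.4 and 1502.5 without and 603.1, 614.3 and 582.6 with FAMA. FAMA-EAR arrays, at 1007.6, 986.7 and 1007.4, lay between the groups without overlap.

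IAGLU (AT4G15550, chromosome 4, 8877590 to 8879327), which joins glucose to the auxin indole-3-acetic acid, had 1498.8, 1582.4 and 1473.5 in the 4 h controls and 924.6, 1066.3 and 834.7 with FAMA. At 48 h the controls had 705.9, 628.1 and 838.3 and FAMA seedlings 420.3, 425.3 and 550.3. Its lowest signals were those with FAMA-EAR, at 353.9, 359.3 and 403. AT4G15390 and AT5G01210, acyltransferases of the HXXXD family, differed from control by -2.20 and -0.76 at 48 h and by -0.86 and -0.51 at 4 h.

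Class III peroxidases, which act on hydrogen peroxide in the cell wall, gave 3 named members, and 2 of them lie on chromosome 5 with 1 protein-coding gene between them. PRX71 (AT5G64120, chromosome 5, 25659257 to 25661007) had signals of 3275.6, 3893.8 and 3388.5 in the 4 h controls and 2161.2, 1745 and 1987.8 with FAMA. At 48 h the values were 1441.2, 1460.6 and 1565.1 without and 426.7, 574.6 and 600.4 with FAMA, and 1612.2, 992.8 and 999.2 with FAMA-EAR. PRX71 was thus lower with FAMA at each time and lower in the older controls, and 1 of its FAMA-EAR arrays stood above every control of that age.

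Its neighbour AT5G64100 (chromosome 5, 25650567 to 25652247) had 3448.4, 3113.7 and 2977.4 in the 4 h controls and 1881.6, 1770.8 and 2460.5 with FAMA. At 48 h it had 1338.7, 1041.8 and 1311.7 without FAMA, 847.1, 846.7 and 762.9 with it and 2282.7, 2401.3 and 2344.1 with FAMA-EAR. Here the induced constructs stood on opposite sides of the controls. The remaining peroxidase gene, AT5G15180, had mean signals between 89.6 and 163.1 over the 5 groups and differed from control by -0.57 and -0.73.

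Genes of wall synthesis or modification and of secreted proteins included PME41 (AT4G02330, ATPMEPCRB in the table, chromosome 4, 1032350 to 1035055), a pectin methylesterase. It had 987.6, 988 and 774.1 in the 4 h controls and 452.6, 407.8 and 433.9 with FAMA, then 395, 316.6 and 368.1 in the 48 h controls and 124.8, 199.7 and 171.7 with FAMA. Its log2 difference was -1.05 at each time. TBL45, of a family that acetylates wall polymers, and CSLA03, of a family of mannan synthases, differed by -1.06 and -0.55 at 48 h. AT3G16530, a legume lectin family gene, had 2962.2, 3460.4 and 2875.9 in the 48 h controls and 949.7, 1078.8 and 1108.4 with FAMA. AT4G12490, of the lipid transfer proteins next to EARLI1 and AZI1, spread widely between FAMA-EAR arrays, at 1301, 311.5 and 556.6.

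Among the named transporters, AT5G14120 (chromosome 5, 4555821 to 4558710), of the major facilitator superfamily and among the brightest members, had the largest fall at 48 h. Its signals were 5905.6, 4919.7 and 5149.3 in the 4 h controls, 3240.2, 3792.7 and 3766.5 at 4 h of FAMA, and 1528.9, 1681.7 and 1506.1 at 48 h of FAMA against 4596.9, 4654.1 and 6002.7 in the controls. The difference deepened from -0.56 to -1.67. AT2G16660, also of that superfamily, went from -0.77 to -0.53. AT5G38030, of the MATE efflux family, differed by -0.56 and -1.42, and SWEET2, a vacuolar sugar transporter, by -0.62 and -0.93. ATSPS4F, a sucrose phosphate synthase, differed by -0.77 and -0.64.

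Redox and proteostasis genes were also present. AT4G15690 and AT4G15680, adjacent glutaredoxin genes on chromosome 4, differed by -0.89 and -0.78 at 4 h and by -1.97 and -0.94 at 48 h. These genes belong to a tandem array of near-identical copies, so a probe set may read more than 1 of them. AT4G15690 had only 19.4, 36.5 and 21.8 at 48 h of FAMA against 191.3, 83.2 and 234.7 in the controls, so its size depends on the offset of 20. AT1G64500, a further glutaredoxin family gene, differed by -0.61 and -0.71. AT1G23390, a Kelch repeat F-box gene whose product targets chalcone synthase, had 4687.7, 4009.8 and 5470.7 in the 48 h controls and 1243.5, 1104.3 and 1618.4 with FAMA. AT4G21870, of the small heat shock protein type, differed by -1.25 at 4 h and -0.88 at 48 h.

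Of the other large differences, AT2G25735 stood at -1.52 and -1.57 and AT2G20670 at -1.25 and -1.39. AT4G10270, a wound-responsive family gene, had -1.44 and -1.02, and AT3G10120 had -1.31 and -0.91. Some of the strongest members were unnamed. Probe set 254550_at had the lowest log2 difference of all probe sets at 48 h (-3.33). Its signals were 1369.8, 912.6 and 1455.5 in the 48 h controls and 171.3, 73.9 and 85.4 with FAMA. Probe set 266330_at had 2328.2, 1712.7 and 2180.1 without and 312.1, 233.6 and 264.4 with FAMA. At 4 h their log2 differences were -0.74 and -1.01.

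**Figure D2:**
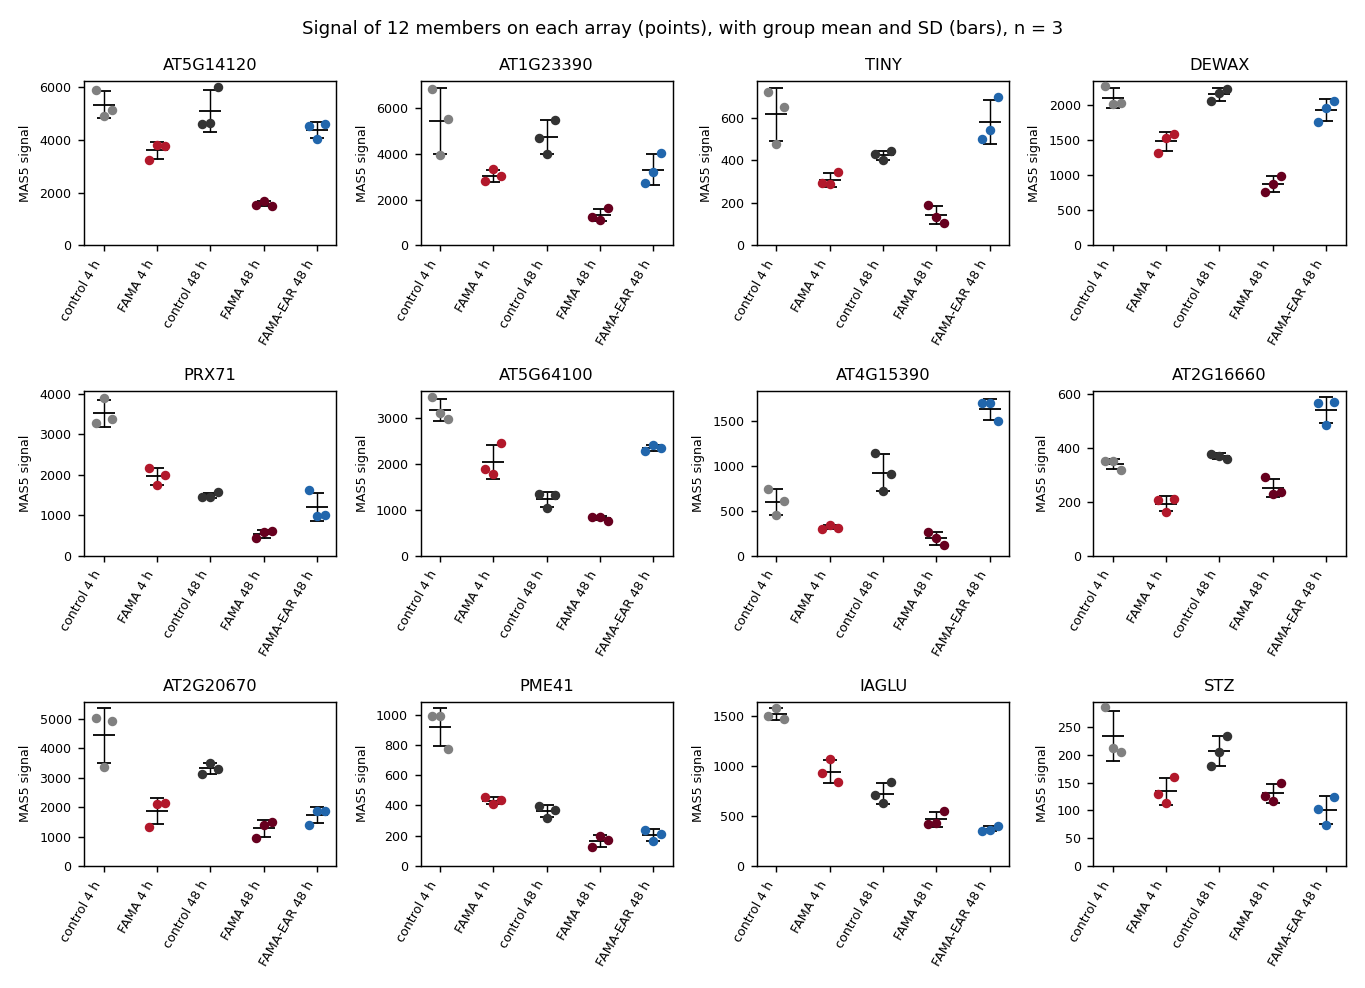
MAS5 signal (vertical axis, linear, from 0) of 12 named members in the 5 groups (horizontal axis), with a point for each array and bars for the mean and SD of 3 arrays. FAMA arrays lie below the controls of the same time in every panel, as the choice requires. FAMA-EAR arrays lie above the 48 h controls for TINY, AT5G64100, AT4G15390 and AT2G16660 and below FAMA 48 h for IAGLU. In limma, the rise of TINY over the controls was not called (adjusted p = 0.232). The difference of IAGLU from FAMA was not called either (adjusted p = 0.0882).

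Of 46 lists of pathway, family and marker genes, 27 had a named probe set and 3 held a member, 1 each. The lists of peroxidases, acyltransferases and major facilitator transporters were among those that matched no probe set, because the gene table gives no family for most loci, so these counts do not describe how many members belong to each family. Guard cell genes (4 probe sets for 14 listed loci) and stomatal lineage genes besides FAMA (3 for 17) held no member. Photosynthesis (5 for 18), auxin response (6 for 20) and G2 and M phase (3 for 15) genes held none. Most of these loci had no named probe set and 83 of the 158 members had no name, so such genes may still be members. The UGT list of 43 probe sets held UGT72E1. At 48 h of FAMA, limma at an adjusted p threshold of 0.05 called 8 of the 43 lower and 3 higher. Over all probe sets, 11% were called lower and 10.6% higher. This contrast helped choose UGT72E1 as a member, so the counts are only a description. Lists were matched by symbol or locus, and IAGLU is not in that list. The list of pectin enzymes held PME41, 1 of 4. Named members were on all 5 nuclear chromosomes, with 16 of 74 on chromosome 4 (21.6%, against 14.6% of all named probe sets) and 14 on chromosome 1 (18.9%, against 25.7%).

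FAMA-EAR against control at 48 h asked whether the same transcripts were low when FAMA carried a repression domain. FAMA-EAR seedlings had estrogen and the controls had none, so hormone and construct cannot be told apart here. This contrast was not used to choose members, but it shares the 48 h control arrays that the choice required to be high. Its values were mostly below 0: 137 of 158 members were, with a median log2 difference of -0.35, against -0.01 for all probe sets. In limma, 40 members fell (25.3% of members, against 1.81% of all probe sets) and 5 rose (3.16% of members, against 1.39% of all). Groups did not overlap, with FAMA-EAR lower, in 85 members (53.8%, against 11.4% of all), and with FAMA-EAR higher in 8 (10.7% of all). For the same members the median at 48 h of FAMA over those controls was -0.87.

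The count of 40 moved with single arrays. It was 13 without the third 48 h control or without the second FAMA-EAR array (0.980% of all probe sets in each), 25 without the second 48 h control (1.11% of all), and 10 with no variance trend (0.906% of all). With array medians set equal it was 25 (1.17% of all). The median over members was between -0.39 and -0.30 on leaving out any 1 array. FAMA-EAR arrays also had the highest 3' to 5' ratios of the 48 h groups, and the part of RNA quality in these falls was not tested.

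Among the falls with FAMA-EAR, those with the lowest adjusted p in limma were IAGLU (-0.92, SE 0.122, adjusted p = 0.00011) and AT5G14730 (-1.05, SE 0.142, adjusted p = 0.000124). Both calls held in all 23 alternatives run, as did that of UGT72E1 (-0.46, SE 0.091, adjusted p = 0.00544). AT2G20670 fell by 0.95 (SE 0.182, adjusted p = 0.00435), from 3144, 3500.7 and 3309.5 to 1405.7, 1877.4 and 1877.6, and missed the threshold only with no variance trend (adjusted p = 0.0707). PME41 fell by 0.77 (adjusted p = 0.0089) and lost the call once, on leaving out FAMA-EAR array 2 (adjusted p = 0.0706). PRX71, at -0.34 (adjusted p = 0.271), passed on leaving out FAMA-EAR array 1 (-0.57, adjusted p = 0.0207). SWEET2 fell by 0.58 (adjusted p = 0.00612, and 0.0544 with no variance trend).

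Less firm were STZ (-0.93, adjusted p = 0.0136), AT4G22470, of the protease inhibitor and lipid transfer family (-0.93, adjusted p = 0.0163), and probe set 254550_at (-1.12, adjusted p = 0.0106) in limma. STZ missed the threshold on leaving out 48 h control 2, 48 h control 3 or FAMA-EAR array 2 (adjusted p = 0.0505, 0.0829 and 0.0888). The highest adjusted p over the alternatives was 0.1 for AT4G22470 and 0.0993 for 254550_at. AT4G10270 (-1.02, adjusted p = 0.0423) lost its call in 14 of 23 alternatives. AT3G16530 (-0.54, adjusted p = 0.0153), AT1G64500 (-0.53, adjusted p = 0.0153), ATSPS4F (-0.57, adjusted p = 0.0252) and AT1G65490 (-0.70, adjusted p = 0.025) reached 0.117, 0.086, 0.135 and 0.144 at the highest.

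The 5 members that rose with FAMA-EAR were AT5G64100, AT4G15390, AT2G16660 and probe sets 266330_at and 264960_at, the last chosen after its values were seen. AT5G64100 rose by 0.93 (SE 0.112, adjusted p = 3.51e-05 in limma) and held in all 23 alternatives. AT4G15390 had 1142, 722.2 and 915.5 in the 48 h controls and 1708, 1698 and 1501.5 with FAMA-EAR, a rise of 0.83 (SE 0.207, adjusted p = 0.0305) that missed the threshold on leaving out FAMA-EAR array 1, 2 or 3 or 48 h control 2 or 3, and with no variance trend (adjusted p = 0.0616 to 0.164). AT2G16660 rose by 0.52 (adjusted p = 0.0346 in limma). It missed the threshold on leaving out any 1 FAMA-EAR array or any 1 48 h control, and with no variance trend (adjusted p = 0.0522 to 0.136). The unnamed 266330_at rose by 0.79 (adjusted p = 0.0084), with 0.0646, 0.0562 and 0.092 without the second 48 h control, without FAMA-EAR array 2 and with no variance trend. For 264960_at the rise was 0.67 (adjusted p = 0.0253, at most 0.149). The number that rose was 1 without the second 48 h control (0.633% of members, against 0.646% of all probe sets), 3 without the third (1.9%, against 0.721%) and 1 with no variance trend (0.633%, against 0.51%). It was 2 (1.27% of members) on dropping each FAMA-EAR array in turn, against 0.594% to 0.835% of all.

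**Figure D3:**
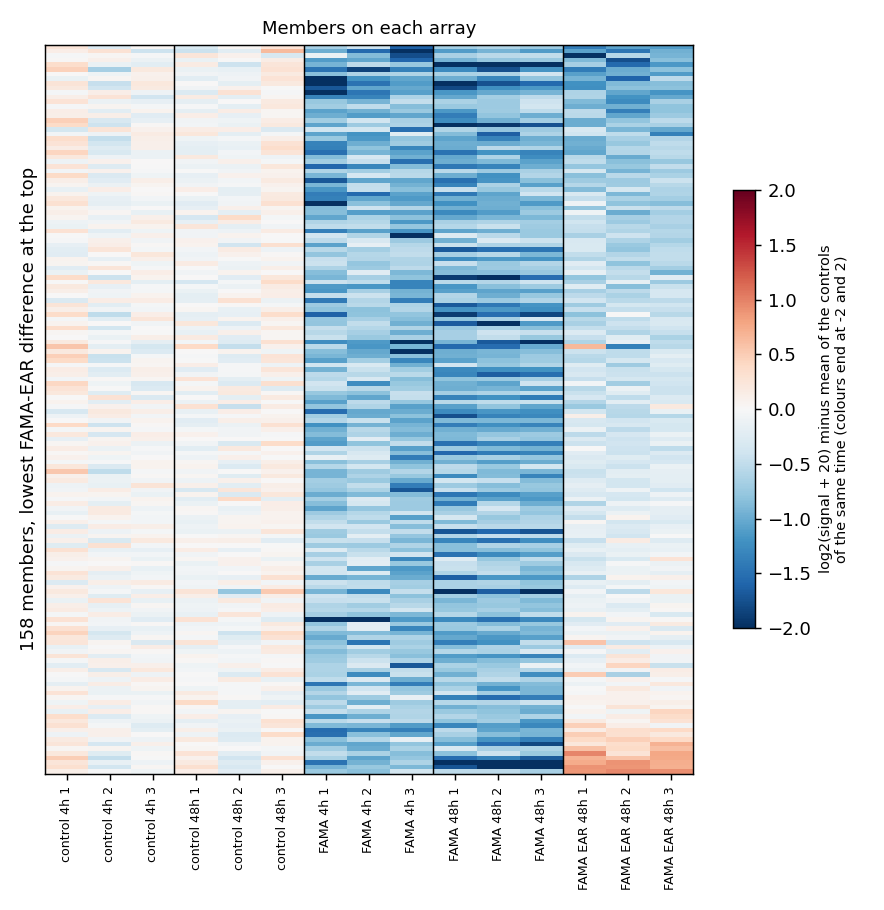
Each of the 158 members (rows, ordered by the FAMA-EAR difference) on each of the 15 arrays (columns), coloured by log2(signal + 20) minus the mean of the controls of the same time, with colours ending at -2 and 2. FAMA columns are blue by choice of the members, while FAMA-EAR columns run from blue at the top to red at the bottom, where the 5 members that rose lie.

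FAMA-EAR against FAMA at 48 h compared the constructs at the same age and the same estrogen. FAMA signal itself differed between them, with a mean of 18024 at 48 h of FAMA and 3060 with FAMA-EAR. Construct and transcript level therefore cannot be told apart here. The contrast shares the FAMA 48 h arrays that the choice required to be low. The members' median log2 difference was 0.53, against 0.01 for all probe sets. In limma 87 members were higher with FAMA-EAR (55.1% of members, against 11.6% of all) and 1 was lower (0.633% of members, against 11.1% of all). Groups did not overlap in 107 members with FAMA-EAR higher (20.7% of all) and in 3 with FAMA-EAR lower (20.5% of all). The 3' to 5' ratio also parts these groups without overlap, and its part in the result was not tested.

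Read with the comparison to control, the 158 members fell into several kinds. In 67 (42.4% of members, against 10.7% of all probe sets) the FAMA-EAR level passed as higher than FAMA and not against control, among them AT5G14120, DEWAX, TINY, PRX71, AT1G23390 and HYH. In 24 (15.2%, against 0.62% of all) it passed as lower than control and not against FAMA, among them AT2G20670, PME41, IAGLU and STZ. In 15 (9.49%, against 0.145% of all) it was both below control and above FAMA, as for UGT72E1, SWEET2 and AT3G16530. In 5 (3.16%, against 0.813% of all) it was above both, in 46 (29.1%, against 76.1% of all) it passed in neither test, and 1, AT5G14730, was below both (0.633%, against 1.05% of all). The control and FAMA arrays of both tests chose the members. A call in only 1 of these tests does not show that the level equals that of the other group.

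The choice required the FAMA 48 h arrays of every member to be low, so a difference above 0 here is partly set by it. By limma, FAMA-EAR exceeded FAMA by 3.63 for 266330_at (SE 0.163, adjusted p = 1.18e-12), by 3.02 for AT4G15390 (SE 0.207, adjusted p = 6.62e-10) and by 1.90 for TINY (SE 0.175, adjusted p = 4.82e-08). The difference was 1.47 for AT5G14120 (SE 0.103, adjusted p = 1.04e-09), 1.49 for AT5G38030 (adjusted p = 1.87e-07) and 1.13 for DEWAX (adjusted p = 2.57e-08). For the peroxidase genes it was 1.50 for AT5G64100 (adjusted p = 2.39e-09), 1.12 for PRX71 (adjusted p = 7.06e-06) and 0.62 for AT5G15180 (adjusted p = 0.0265, and up to 0.0921 over the alternatives). The calls of HYH and SWEET2 (0.46 and 0.34, adjusted p = 0.00751 and 0.0378) also had alternatives past the threshold, at 0.0506 and up to 0.169. AT5G14730 differed by -0.51 (adjusted p = 0.0116), which ended without the third FAMA 48 h array (adjusted p = 0.0769). In 3 further members, AT2G20670, IAGLU and STZ, the adjusted p was 0.0948, 0.0882 and 0.286.

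Control 48 h against control 4 h asked how these transcripts moved in uninduced seedlings from day 5 to day 7. Age and time since the move to fresh plates (4 h or 48 h) changed together and cannot be told apart. Both control groups were among the arrays that chose the members, though this contrast was not. The median of the members was -0.16, against 0.03 for all probe sets. In limma 41 fell (25.9% of members, against 3.81% of all) and 8 rose (5.06% of members, against 3.37% of all). Groups did not overlap in 54 members that were lower in the older controls (11.3% of all) and in 20 that were higher (14.7% of all).

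The largest falls from the 4 h to the 48 h controls among named members were those of AT4G22470 (-1.45, SE 0.212, adjusted p = 0.000128), AT5G64100 (-1.36, SE 0.112, adjusted p = 1.3e-07), PME41 (-1.30, SE 0.161, adjusted p = 1.82e-05) and PRX71 (-1.23, SE 0.149, adjusted p = 1.48e-05), all by limma. IAGLU fell by 1.06 (adjusted p = 8.23e-06). These genes were thus lower in older controls and lower again with FAMA at each age. AT1G65490 went the other way and rose by 1.58 (SE 0.169, adjusted p = 3.56e-06), from 823.2, 944.7 and 896.6 to 2561, 2888 and 2607.7, and at 48 h of FAMA had 1354.8, 1443.2 and 1271.7. ATSPS4F rose by 0.97 (adjusted p = 9.68e-05).

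AT5G28630 and AT5G66490 rose by 0.88 and 0.67 (adjusted p = 0.0161 and 0.00927, limma). The call of AT5G28630 was lost on leaving out array 2 or 3 of either control group (adjusted p = 0.058 to 0.0819) and after quantile normalization (adjusted p = 0.177). That of AT5G66490 was lost on leaving out 4 h control 2 or 3 or 48 h control 1 (adjusted p = 0.0558 to 0.0602). The number of members that rose was 3 without the second 4 h control (1.9% of members, against 2.18% of all probe sets) and 4 without the second 48 h control (2.53%, against 2.02%). It was 5 (3.16% of members) without the third 4 h control, without the third 48 h control and with no variance trend, against 2.24%, 2.54% and 1.8% of all. The share of members that rose was thus near that of all probe sets, and below it without the second 4 h control.

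**Figure D4:**
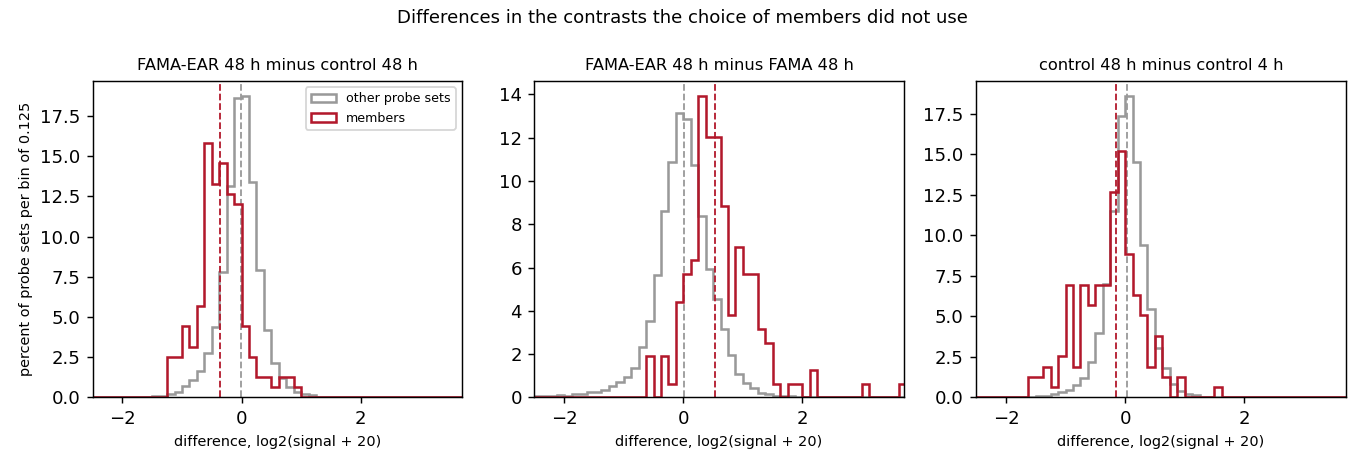
Distribution of the log2(signal + 20) difference (horizontal axis) among members (red) and other probe sets (grey), as percent of each set per bin of width 0.125 (vertical axis), in the 3 contrasts not used to choose members. All 3 contrasts share arrays with that choice. It required 48 h controls (left panel) to be high and FAMA 48 h arrays (middle panel) to be low, and it read both control groups (right panel). Dashed lines mark medians, which for the members are -0.35, 0.53 and -0.16 from left to right.

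Among probe sets outside the group, the 3 whose level over the 15 arrays was most like the mean of the members were 264279_s_at, AT3G29240 and AT5G47390. Their Pearson correlations across arrays were 0.943, 0.934 and 0.932, as a description, since all points share the groups that chose the members. Each missed the rule at 4 h, with differences of -0.46, -0.49 and -0.33.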

How the data were processed

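The authors deposited MAS5 signal intensity on a linear scale for 22810 probe sets on 15 arrays, 1 column per array, per the submitters' processing notes, which name MAS5 without a version. No source used here gives the scaling target or the probe annotation. MAS5 subtracts mismatch probes, so low signals have a larger relative error, and the number of arrays limits the precision. From these values, 64 control probe sets were left out and log2(signal + 20) of 22746 probe sets was fitted in limma 3.58.1 (R 4.3.3) with 1 mean per group, 10 residual degrees of freedom, a variance trend on the mean and two-sided tests, and p-values were adjusted by Benjamini-Hochberg over all probe sets with a threshold of 0.05. With 3 arrays against 3, an exact two-sided permutation test of 1 gene cannot go below p = 0.1.

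Groups came from sample titles. The members and gene lists were chosen with earlier results of these data known. Genes to name were the 12 largest mean falls, members of lists holding at least 2 members (none did), up to 6 members called each way with FAMA-EAR, the 4 largest called changes each way between control ages, those next to the limit, FAMA, the 2 strongest unnamed members and the 3 most alike outsiders. The other members named were chosen for their known roles after their values were seen. Gene names came from GEO's platform annotation, which can be old, and were matched to the RefSeq gene table of assembly TAIR10.1, which gave loci and coordinates; 13436 tested probe sets had 1 gene found there. Promoter motifs were not analysed here. Alternatives varied the offset, scaling, dim-probe filter, variance trend, arrays fitted, replicate block and single arrays. Figures used matplotlib 3.10.9 under Python 3.11.15.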

Additional observations from a re-analysis of the deposited data

Results flagged for a closer look

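Members named above whose 48 h difference from the shared controls differed between FAMA-EAR and FAMA, by limma's test of FAMA-EAR minus FAMA, were singled out. The FAMA arrays in that test were among those that chose the members as low. In log2 units, the difference was 3.63 for 266330_at, 3.02 for AT4G15390, 1.50 for AT5G64100, 1.33 for 264960_at and 1.05 for AT2G16660, the 5 members that also rose above control with FAMA-EAR. It was 2.20 for 254550_at, 1.90 for TINY (tny), 1.85 for AT4G15690, 1.49 for AT5G38030, 1.47 for AT5G14120, 1.31 for AT1G23390, 1.15 for AT2G25735, 1.13 for AT5G61590, 1.12 for AT5G64120 and 1.01 for AT3G16530. It was 0.93 for AT4G15680, 0.90 for AT4G21870, 0.81 for TBL45, 0.72 for UGT72E1, 0.66 for AT5G66490, 0.65 for AT5G01210, 0.62 for AT5G15180, 0.56 for CSLA03, 0.46 for HYH and 0.34 for SWEET2. AT2G25735 and AT4G15680 each lost the call in 2 of 23 alternatives, with limma adjusted p up to 0.0648 and 0.0861. AT5G14730, at -0.51, was the 1 member that passed as lower than FAMA. No group was tested for a single outlying array, since each holds 3.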

How the results depend on the processing

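Between 155 and 214 probe sets met the rule on leaving out 1 of the 12 arrays it reads, and 129 of the 158 members were among the 172 found without the third FAMA 4 h array. A minimum fall of 0.6 gave 99. For FAMA-EAR against control, 45 members were called, 29 with array medians set equal, 11 with no variance trend and 15 to 54 on leaving out 1 array. Over all probe sets the count of 729 was 463 with equal medians, 322 with no variance trend and 358 to 1176 on leaving out 1 array, the highest without the third FAMA 4 h array. For FAMA-EAR against FAMA, 88 members were called, with 75 to 102 on leaving out 1 array, and the 5168 probe sets had 4094 to 6154. For control 48 h against control 4 h, 49 members were called, with 32 to 52 on leaving out 1 array, and the 1633 probe sets became 1075 with equal medians, 941 with no variance trend and 1041 to 2264 on leaving out 1 array. The cause of these shifts was not tested. Other settings moved these counts by no more than 1.5 times.

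Replicate numbers were not taken to pair the arrays, since 0 of 30 same-numbered pairs had deviations correlated above 0.1, although 9 of 15 arrays were closest to their own number. With the replicate block, 47, 91 and 48 members were called in these comparisons, in this order, against 3.29%, 22.9% and 7.27% of all probe sets. Of 2685 values of named members under the alternatives, 104 lost and 23 gained a call and 0 changed sign as a call. Alternatives on promoter length and background were not run, since promoter sequences were not used here.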
